A study of Mus musculus with 12 samples.

Results

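The nuclear-encoded subunits of the mitochondrial respiratory chain and of ATP synthase were followed across 12 RNA-seq libraries. Members were the genes that the deposited table calls protein_coding and whose symbol begins with Nduf followed by a, b, c, s or v and a number, with Uqcr, with Cox4 to Cox8 or with Atp5, or is Sdha, Sdhb, Sdhc or Sdhd. Of 56748 genes in the table, 88 met this rule: 37 of complex I, 4 of complex II, 8 of complex III, 21 of complex IV and 18 of complex V. The rule reads only the symbol and the protein_coding label, but it was chosen with earlier results of these data known.

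All 12 libraries came from Ba/F3, an established mouse line that the labels call pro-B cells and that is normally kept alive by the cytokine IL-3. Every group carried NRAS G12D, a constitutively active RAS, and had IL-3 withdrawn: cells were sorted on day 0 into a medium that lacks it and were collected on day 3. The groups differed in a construct that carries the fluorescent marker ZsGreen, behind an IRES where ETV6 is present: ETV6 I209S P214L, ETV6 P214L, ETV6 WT, or ZsGreen with no ETV6, with 3 libraries each. ETV6 is a repressor of the ETS family. By the study's design, P214L gives ETV6 a signal for export from the nucleus and I209S disables that signal, and the study asks whether the double mutant brings back the transcripts of ETV6 WT cells. The promoter behind the constructs, and whether cells were pools or clones, were not given in the sources used here. Nor do the labels say whether the libraries of a group came from separate cultures, so p-values measure the spread between these libraries, which may be technical.

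Complex I (NADH dehydrogenase) and complex II (succinate dehydrogenase, also an enzyme of the citric acid cycle) pass electrons to ubiquinone. Complex III (cytochrome bc1) passes them to cytochrome c, and complex IV (cytochrome c oxidase) to oxygen. Complexes I, III and IV pump protons as they do so, and complex V (ATP synthase) uses the proton gradient to make ATP. All subunits of complex II are nuclear-encoded, while the other complexes also hold subunits encoded by mitochondrial DNA. Many promoters of nuclear subunit genes are known in mammals to bind NRF1 and the ETS factor GABP.

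The libraries held 14301683 to 18607595 counts, and the members took 0.689 to 0.924% of them. Levels are given as CPM (counts scaled to a common library total, with edgeR's TMM factors), and means are given ± SD of 3 libraries. ETV6 WT 1 and I209S P214L 1 stood apart: 18S ribosomal RNA took 1.35% of counts in I209S P214L 1 and 1.58% in ETV6 WT 1, against 2.92 to 5.90% in the other 10 libraries. Along the second principal component ZsGreen 1 stood apart as well. Results are therefore also given without these libraries. Among 13 pro-B markers, Igll1, Rag1, Dntt, Il7r and Cd34 had no count in any library, and Vpreb1, Ebf1, Pax5 and Kit stayed at or below 0.533 CPM, so the defining markers of the labelled cell type were nearly absent. Ptprc, the pan-leukocyte gene, ranged from 314 to 749.5 CPM. Marker sums of blood lineages differed between the groups. The pro-B markers summed to 718 to 758 CPM with I209S P214L, 452 to 486 CPM with P214L, 644 to 752 CPM with ETV6 WT and 323 to 354 CPM with ZsGreen, most of it Ptprc. The 6 erythroid markers summed to 257 to 375 CPM with I209S P214L, 65.3 to 104 CPM with P214L, 250.2 to 343 CPM with ETV6 WT and 90.1 to 96.4 CPM with ZsGreen. The 8 neutrophil and monocyte markers, of which Ly6g was at 0, summed to 3.00 to 5.52, 84.1 to 134, 4.09 to 4.67 and 26.3 to 36.5 CPM in the same groups. The 6 mast cell and basophil markers, of which Prss34 was at 0, summed to 38.2 to 43.6, 14.4 to 19.0, 36.0 to 37.4 and 10.0 to 14.1 CPM. T cell markers summed to at most 4.16 CPM and fibroblast markers to at most 0.508 CPM in any library. The part of these lineage genes in the results below was not tested.

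Summed over all 88 members, expression was lower in cells with I209S P214L and with ETV6 WT than in cells with P214L and with ZsGreen. The sum was 7479.9, 7187 and 6951 CPM with I209S P214L, 9011, 9139 and 8594 CPM with P214L, 7564, 7698 and 6821 CPM with ETV6 WT, and 9325, 9265 and 9079.5 CPM with ZsGreen. Each library of I209S P214L and of ETV6 WT was thus below each library of P214L and of ZsGreen. The mean with ETV6 WT was 79.8% of that with ZsGreen, the mean with I209S P214L was 80.8% of that with P214L, and the mean with P214L was 96.7% of that with ZsGreen. These sums describe the members and carry no test. In bulk libraries, fewer cells with a given level and less RNA per cell cannot be told apart, and CPM are shares of a library's total.

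**Figure D1:**
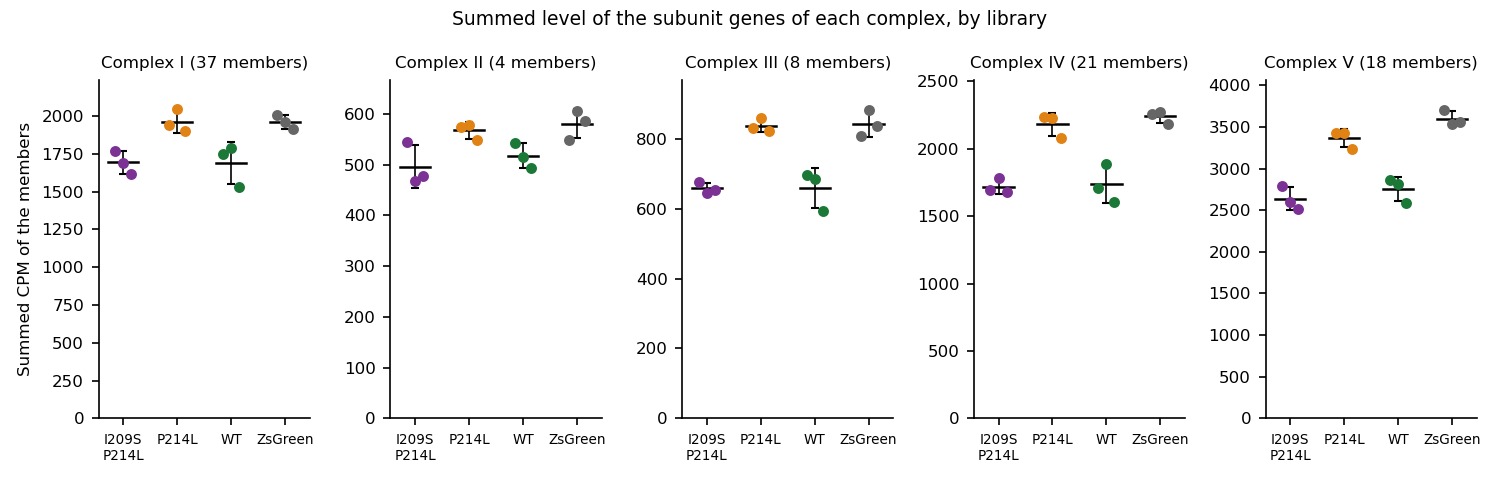
Summed CPM of the members of each complex (vertical axis, from 0) in each library of the 4 groups; points are libraries 1, 2 and 3 from the left, bars are means ± SD. In every complex the 3 I209S P214L libraries lie below the 3 P214L libraries and the 3 ETV6 WT libraries below the 3 ZsGreen libraries, with the smallest gap in complex II, where the highest I209S P214L library had 544 CPM and the lowest P214L library 549 CPM.

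By complex, the mean with ETV6 WT was 86.3% of that with ZsGreen for complex I, 89.1% for complex II, 78.2% for complex III, 77.5% for complex IV and 76.6% for complex V. The mean with I209S P214L as a share of that with P214L was 86.4%, 87.4%, 78.6%, 78.8% and 78.4% for complexes I to V. Sums are dominated by abundant genes. The deposited FPKM, which divide by gene length and so allow genes to be compared, were highest for Cox8a (443 on average over the 12 libraries), Cox4i1 (271) and Cox6a1 (260.3), all of complex IV. The median FPKM of tested members was 31.7 in complex I, 48.3 in complex II, 49.5 in complex III, 80.5 in complex IV and 49.0 in complex V. Ndufb2 (1.45 FPKM) and Atp5l (12.6 FPKM) have long gene models, of 5628 and 6443 bases, over which their reads are spread.

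Enough counts for a test were found for 79 members. The other 9 were Ndufb11b, Cox8c and an additional Atp5o model (ENSMUSG00000116933), each with 0 counts in all 12 libraries, and Cox4i2, Cox6a2, Cox6b2, Cox7b2, Cox8b and Ndufa4l2, whose highest count in any library was 2 to 10. In the edgeR quasi-likelihood fit to 14794 genes, 48 of the 79 differed among the 4 groups at an adjusted p under 0.05, beside 41% of all genes tested. They were 17 of 36 tested members of complex I, 2 of 4 of complex II, 6 of 8 of complex III, 11 of 14 of complex IV and 12 of 17 of complex V.

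With ETV6 WT against ZsGreen, 45 of the 79 tested members fell and 1 rose, where 18.2% of all genes tested fell and 19.5% rose. The median log2 fold change of the members was -0.30, beside 0.03 over all genes. Those that fell were 15 of complex I, 2 of complex II, 6 of complex III, 10 of complex IV and 12 of complex V. Without ETV6 WT 1 and I209S P214L 1, 47 fell and 1 rose, and the counts were the same with ZsGreen 1 left out as well. Leaving out 1 library at a time gave 37 to 51 falls, the fewest without ZsGreen 2 or without ETV6 WT 3. With I209S P214L against ZsGreen, which uses the same ZsGreen libraries, 44 fell and 1 rose, where 20.7% of all genes fell and 20.8% rose, and the median was -0.34. Without ETV6 WT 1 and I209S P214L 1, 49 fell and 1 rose. Leaving out 1 library at a time gave 39 to 49 falls here.

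With P214L against ZsGreen, 1 of 79 members fell and 0 rose, where 1.61% of all genes fell and 3.47% rose. By DESeq2 and by limma-voom the counts were also 1 and 0, and 5 members had an unadjusted p under 0.05 in the edgeR fit. The median was -0.03, beside 0.01 over all genes. Against ETV6 WT, 40 members were higher with P214L and 1 was lower, where 14.6% of all genes were called in each direction, and the median was 0.30. Leaving out 1 library at a time gave 29 to 45 members higher. With I209S P214L against P214L, 44 members fell and 1 rose, where 17.1% of all genes fell and 15.9% rose, and the median was -0.34. Without P214L 2, this count of falls was 29, and without ETV6 WT 1 and I209S P214L 1 it was 51.

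Between I209S P214L and ETV6 WT, no member was called in either direction by edgeR, DESeq2 or limma-voom, and 2 of 79 had an unadjusted p under 0.05. Of all genes tested, 0.0135% were called higher and 0.0203% lower. The median of the members was -0.01, and single members lay between -0.30 and 0.16 on the log2 scale. This does not show that the groups are equal. The SE of these fold changes ran from 0.06 (Cox7a2l) to 0.59 (Cox7a1).

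**Figure D2:**
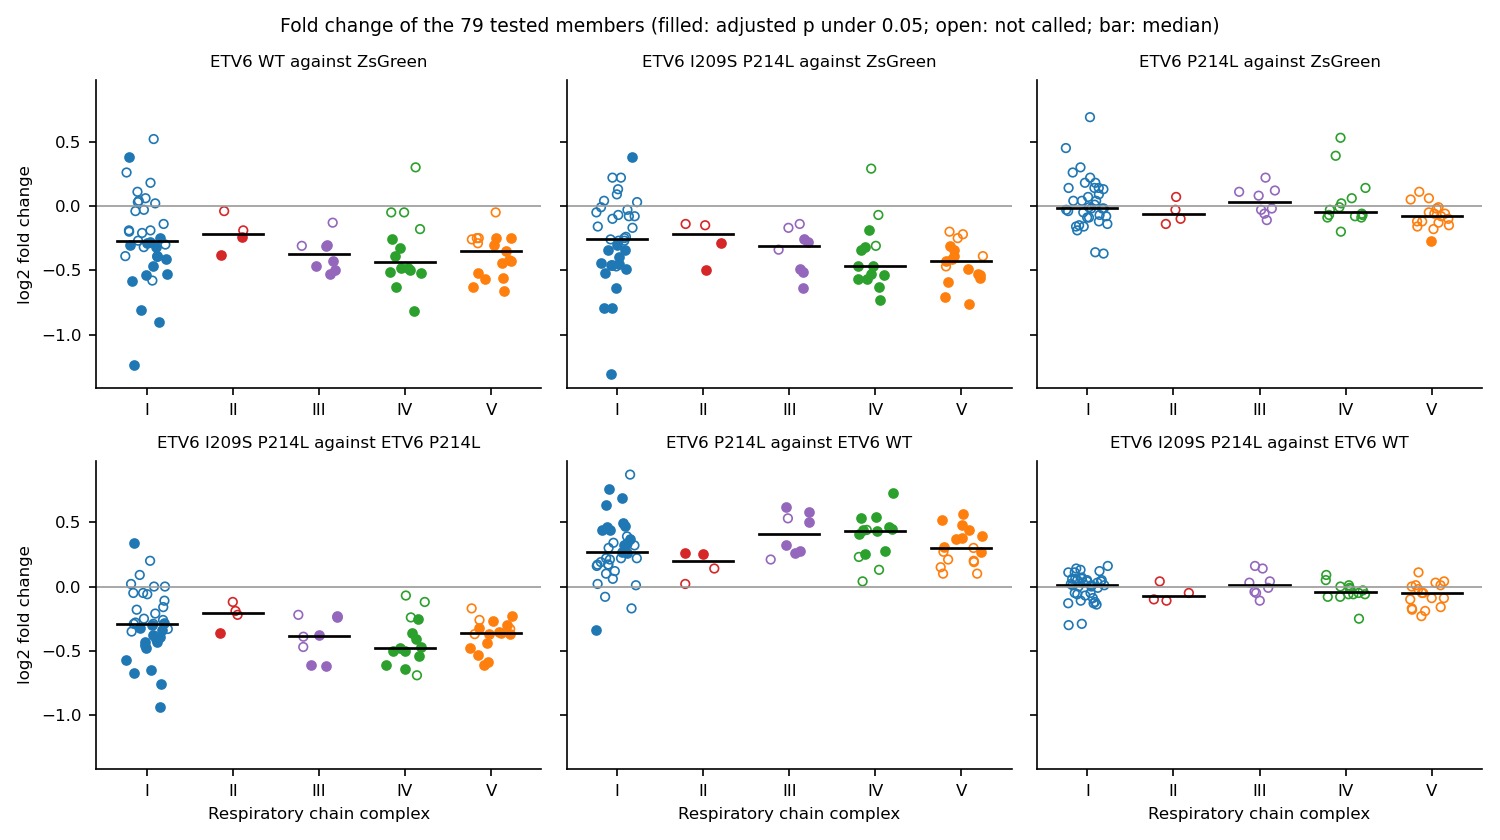
Log2 fold change (vertical axis) of the 79 tested members in the 6 comparisons, by complex (horizontal axis); filled points are called at an adjusted p under 0.05, open points are not, and bars are medians. In the panels of ETV6 WT and of I209S P214L against ZsGreen most filled points lie below 0 (45 and 44 members), P214L against ZsGreen has 1 filled point, and I209S P214L against ETV6 WT has none.

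In complex I, the matrix arm takes electrons from NADH and the membrane arm pumps protons. Ndufa5, an accessory subunit of the matrix arm (ENSMUSG00000023089; chromosome 6, 24518665 to 24528012, minus strand, mm39), stood at 19.3, 20.2 and 20.4 CPM with I209S P214L, 31.6, 32.5 and 29.9 CPM with P214L, 17.1, 22.0 and 16.3 CPM with ETV6 WT and 33.9, 35.1 and 34.8 CPM with ZsGreen. The groups with I209S P214L and ETV6 WT did not overlap those with P214L and ZsGreen. Its log2 fold change was -0.90 with ETV6 WT against ZsGreen (SE 0.12, adjusted p = 6.79e-06), which is a 1.87-fold fall, and -0.65 with I209S P214L against P214L (SE 0.12, adjusted p = 0.000271).

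Ndufv2, an iron-sulfur subunit near the NADH site (ENSMUSG00000024099; chromosome 17, 66385633 to 66408554, minus strand), had 56.9, 57.2 and 54.3 CPM with I209S P214L, 68.5, 83.6 and 74.7 CPM with P214L, 50.7, 54.1 and 56.7 CPM with ETV6 WT and 77.3, 74.1 and 89.5 CPM with ZsGreen. It again split the groups without overlap, and fell by 0.58 on the log2 scale with ETV6 WT against ZsGreen (SE 0.09, adjusted p = 6.22e-05). Ndufa9, a matrix-arm subunit beside the quinone site, fell by 0.54 in that comparison, with 56.8 ± 4.33 CPM with ETV6 WT and 82.7 ± 8.83 CPM with ZsGreen (adjusted p = 0.000108). Both have a gene of the other strand over their span, and whether counting used strand is not known.

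Ndufa6 (ENSMUSG00000022450; chromosome 15, 82234341 to 82238523, minus strand), an accessory subunit of the matrix arm that carries an LYR motif, was the sole member called higher with ETV6 WT or with I209S P214L in any comparison against ZsGreen or P214L. It had 99.0, 86.5 and 89.6 CPM with I209S P214L, 70.5, 77.2 and 69.2 CPM with P214L, 95.7, 99.4 and 80.4 CPM with ETV6 WT and 75.9, 64.2 and 70.7 CPM with ZsGreen. The same split of the groups held here in the opposite direction, with no overlap. The log2 fold change was 0.38 with ETV6 WT against ZsGreen (SE 0.09, adjusted p = 0.00255), 0.38 with I209S P214L against ZsGreen (adjusted p = 0.00237), 0.34 with I209S P214L against P214L (adjusted p = 0.00712) and -0.34 with P214L against ETV6 WT (adjusted p = 0.00782). All 4 calls held in each of 22 alternative fits.

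Ndufa12, a matrix-arm subunit (ENSMUSG00000020022; chromosome 10, 94034582 to 94057305, plus strand), had the lowest log2 fold change with ETV6 WT against ZsGreen, at -1.24 (SE 0.35, adjusted p = 0.00862). Its libraries scattered widely: 4.89, 7.81 and 5.52 CPM with I209S P214L, 13.6, 13.2 and 8.04 CPM with P214L, 4.70, 10.7 and 3.72 CPM with ETV6 WT and 22.3, 11.8 and 10.9 CPM with ZsGreen. ZsGreen 1 held the highest value, and without it the change was -0.83 (adjusted p = 0.0788). The pseudogene Ndufa12-ps had 188 to 338 counts a library, while Ndufa12 had 70 to 395, so reads shared between them make the value uncertain. Against P214L, the fall of Ndufa12 with I209S P214L (-0.94, adjusted p = 0.0494) lost its call in 10 of 22 alternative fits.

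In the membrane arm, 7 of 20 members fell with ETV6 WT against ZsGreen, where 18.2% of all genes fell. Ndufc1, a small subunit of this arm, had 15.8, 15.2 and 14.7 CPM with I209S P214L, 26.8, 24.3 and 21.8 CPM with P214L, 13.1, 16.6 and 15.3 CPM with ETV6 WT and 32.1, 26.5 and 20.5 CPM with ZsGreen. All I209S P214L and ETV6 WT libraries were below all others, with a log2 fold change of -0.81 for ETV6 WT against ZsGreen (SE 0.15, adjusted p = 0.000339). Ndufb6, another subunit of the membrane arm, had 17.4, 17.2 and 16.7 CPM with I209S P214L, 28.2, 29.4 and 29.2 CPM with P214L, 17.1, 18.9 and 20.2 CPM with ETV6 WT and 22.2, 22.8 and 25.4 CPM with ZsGreen. Here P214L was the highest group. Its fall was 0.76 on the log2 scale with I209S P214L against P214L (SE 0.11, adjusted p = 3.27e-05), and its log2 fold change was -0.32 with ETV6 WT against ZsGreen.

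Core subunits of complex I did not all move. Ndufv1, which binds NADH, averaged 112 ± 8.72 CPM with I209S P214L, 111 ± 5.09 CPM with P214L, 110.3 ± 19.6 CPM with ETV6 WT and 113 ± 4.34 CPM with ZsGreen, and was called in none of the 6 comparisons. Ndufs3, another core subunit of the matrix arm, had a log2 fold change of 0.03 with ETV6 WT against ZsGreen and was not called. Ndufs1, the largest iron-sulfur subunit, fell by 0.28, with 89.4 ± 1.73 CPM with ETV6 WT and 109 ± 10.1 CPM with ZsGreen. In the matrix arm, 8 of 16 members fell and 1 rose in that comparison, where 18.2% of all genes fell and 19.5% rose.

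**Figure D3:**
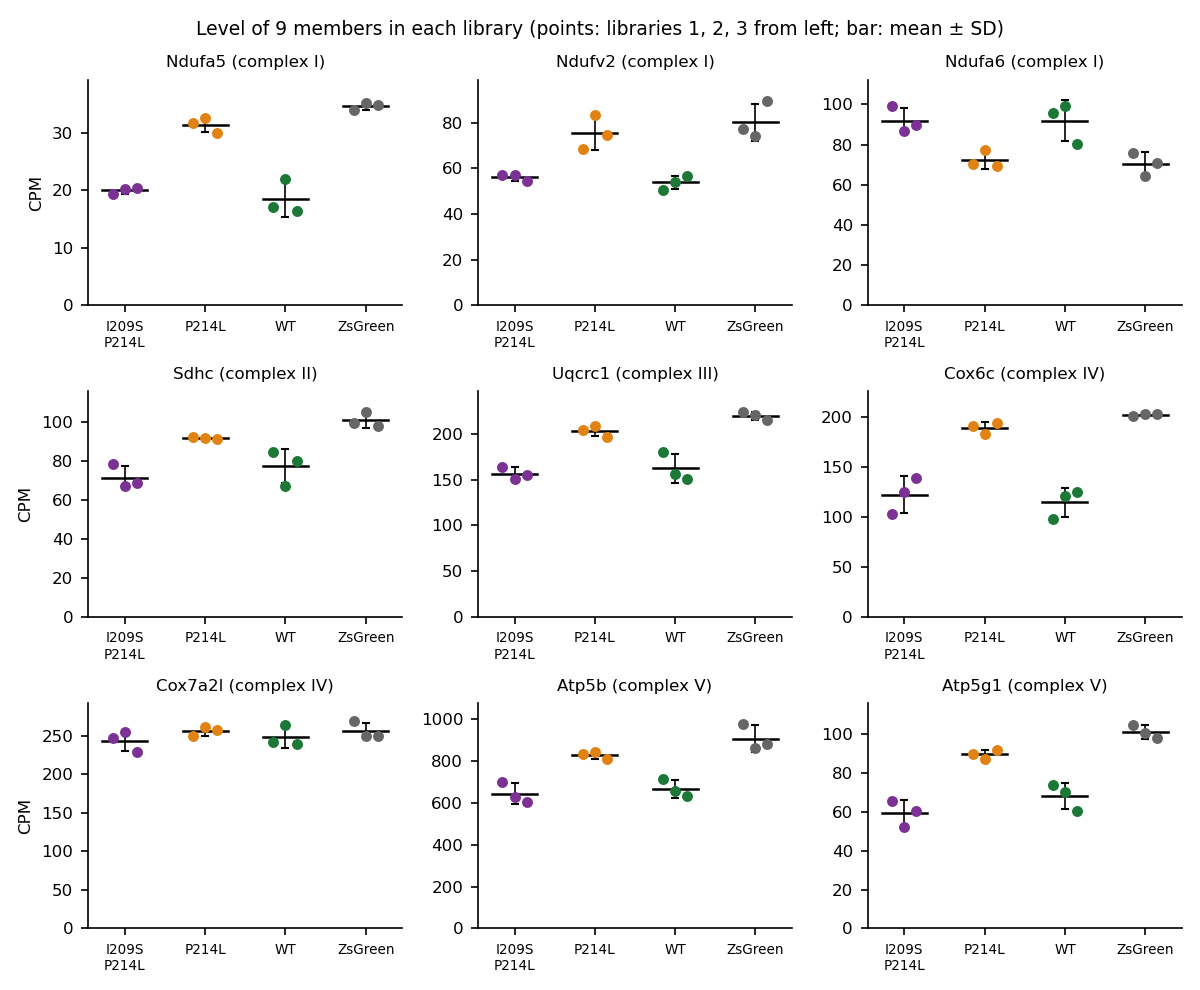
CPM (vertical axis, from 0) of 9 members in each library of the 4 groups; points are libraries 1, 2 and 3 from the left and bars are means ± SD. Ndufa5, Ndufv2, Sdhc, Uqcrc1, Cox6c, Atp5b and Atp5g1 are lower in the I209S P214L and ETV6 WT libraries than in the P214L and ZsGreen libraries, Ndufa6 is higher, and Cox7a2l overlaps between all groups, at 229 to 269 CPM.

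Complex II was divided. Sdha, the flavoprotein that oxidizes succinate, had 249, 183 and 213 CPM with I209S P214L, 239, 239.7 and 221 CPM with P214L, 235, 241 and 216 CPM with ETV6 WT and 224, 248 and 241 CPM with ZsGreen. Its groups overlapped and it was called in no comparison, with a log2 fold change of -0.04 for ETV6 WT against ZsGreen (SE 0.09). Its log2 fold change with I209S P214L was -0.14 against ZsGreen and -0.12 against P214L. Without I209S P214L 1, its highest library, both were called, at -0.26 (adjusted p = 0.0149) and -0.23 (adjusted p = 0.035). Sdhc, a membrane anchor (ENSMUSG00000058076; chromosome 1, 170954734 to 170978172, minus strand), had 78.4, 67.2 and 68.7 CPM with I209S P214L, 92.0, 91.7 and 91.1 CPM with P214L, 84.3, 67.3 and 80.1 CPM with ETV6 WT and 99.5, 105 and 97.9 CPM with ZsGreen. No I209S P214L or ETV6 WT library reached a P214L or ZsGreen library.

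Sdhc fell by 0.38 on the log2 scale with ETV6 WT against ZsGreen (SE 0.09, adjusted p = 0.00146) and by 0.36 with I209S P214L against P214L (adjusted p = 0.00331). Its rise with P214L against ETV6 WT (0.25, adjusted p = 0.0369) was not called without ETV6 WT 2, without any P214L library, or with a gene length trend in the fit. Sdhb, the iron-sulfur subunit (ENSMUSG00000009863; chromosome 4, 140688514 to 140706504, plus strand), had 88.0, 93.5 and 74.9 CPM with I209S P214L, 99.8, 100.1 and 93.0 CPM with P214L, 94.1, 83.0 and 88.8 CPM with ETV6 WT and 108, 107 and 98.2 CPM with ZsGreen. ETV6 WT and ZsGreen did not overlap, while I209S P214L and P214L did. Its fall of 0.24 with ETV6 WT against ZsGreen (SE 0.08, adjusted p = 0.0328) was not called without ZsGreen 1, ZsGreen 2, ETV6 WT 2 or ETV6 WT 3, and its fall of 0.29 with I209S P214L against ZsGreen (adjusted p = 0.00985) was not called without I209S P214L 3. Sdhd, the other anchor, averaged 124 ± 4.22 CPM with I209S P214L, 145 ± 1.45 CPM with P214L, 121 ± 10.7 CPM with ETV6 WT and 138 ± 17.5 CPM with ZsGreen. It was higher with P214L against ETV6 WT (0.26, adjusted p = 0.0301), a call lost without ETV6 WT 3 or any P214L library, and its log2 fold change with ETV6 WT against ZsGreen was -0.19 (adjusted p = 0.104), called without ZsGreen 1 (-0.29, adjusted p = 0.00868).

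In complex III, 6 of 8 members fell with ETV6 WT against ZsGreen, where 18.2% of all genes fell. Uqcrc1, a core protein of the matrix face (ENSMUSG00000025651; chromosome 9, 108765701 to 108778691, plus strand), had 164, 150.4 and 155 CPM with I209S P214L, 203 ± 6.33 CPM with P214L (3 libraries, the lowest at 197), 180.1, 156 and 151 CPM with ETV6 WT and 224, 220.3 and 215 CPM with ZsGreen. I209S P214L and ETV6 WT overlapped each other, and both lay below P214L and ZsGreen in every library. The log2 fold change was -0.43 with ETV6 WT against ZsGreen (SE 0.07, adjusted p = 8.57e-05) and -0.38 with I209S P214L against P214L (SE 0.07, adjusted p = 0.000414). Its partner core protein Uqcrc2 fell by 0.31 with ETV6 WT against ZsGreen, and Uqcrfs1, the Rieske iron-sulfur protein, by 0.30.

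Among the small subunits of complex III, Uqcr10 had 42.9, 39.2 and 42.0 CPM with I209S P214L, 63.6, 64.1 and 61.9 CPM with P214L, 42.9, 49.7 and 41.0 CPM with ETV6 WT and 60.9, 69.6 and 62.8 CPM with ZsGreen. P214L and ZsGreen were well above the other groups. Uqcr10 fell by 0.53 with ETV6 WT against ZsGreen (SE 0.09, adjusted p = 0.000121) and by 0.61 with I209S P214L against P214L (SE 0.09, adjusted p = 3.94e-05). Uqcrq, a ubiquinone-binding subunit, fell by 0.47 with ETV6 WT against ZsGreen and by 0.62 with I209S P214L against P214L. The hinge protein gene Uqcrh (-0.13) and Uqcr11 (-0.31) were not called with ETV6 WT against ZsGreen.

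In complex IV, 10 of the 11 subunit genes of its general form fell with ETV6 WT against ZsGreen, and all 11 fell with I209S P214L against ZsGreen. Of all genes, 18.2% fell in the first comparison and 20.7% in the second. Cox6c, a small structural subunit (ENSMUSG00000014313; chromosome 15, 35926032 to 35938392, minus strand), had 103, 125 and 139 CPM with I209S P214L, 191, 183 and 194 CPM with P214L, 97.9, 121 and 125 CPM with ETV6 WT and 201, 203 and 203 CPM with ZsGreen. I209S P214L and ETV6 WT overlapped, and the gap from them up to P214L and ZsGreen was wider than the spread within any group. Cox6c fell by 0.82 on the log2 scale with ETV6 WT against ZsGreen (SE 0.10, adjusted p = 3.19e-06), which is 1.76-fold, and by 0.64 with I209S P214L against P214L (SE 0.10, adjusted p = 6.54e-05). Vps13b lies over the Cox6c span on the other strand.

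Ndufa4, named for complex I but known as a subunit of complex IV, had 96.0, 108 and 114 CPM with I209S P214L, 159, 163 and 138 CPM with P214L, 94.4, 118 and 104 CPM with ETV6 WT and 167, 166 and 157 CPM with ZsGreen. It split the groups without overlap, at -0.63 with ETV6 WT against ZsGreen (SE 0.09, adjusted p = 1.87e-05). Cox5a, a subunit on the matrix side, had 67.2, 69.7 and 69.0 CPM with I209S P214L, 95.4, 101 and 89.6 CPM with P214L, 74.3, 74.2 and 66.3 CPM with ETV6 WT and 107, 96.7 and 96.2 CPM with ZsGreen. I209S P214L and ETV6 WT lay below the other groups in every library. Cox5a fell by 0.54 with I209S P214L against ZsGreen (SE 0.08, adjusted p = 1.43e-05). Cox4i1, the COX4 isoform of most tissues, had a log2 fold change of -0.18 with ETV6 WT against ZsGreen, which was not called, and fell by 0.19 with I209S P214L against ZsGreen and by 0.25 with I209S P214L against P214L.

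Cox6a1, the general isoform of subunit VIa (ENSMUSG00000041697; chromosome 5, 115483701 to 115487040, minus strand), had 158, 145 and 146 CPM with I209S P214L, 209.6 ± 6.06 CPM with P214L (3 libraries, the lowest at 203), 167, 155 and 146 CPM with ETV6 WT and 219, 223 and 225 CPM with ZsGreen. Values with I209S P214L and ETV6 WT overlapped each other and were below those with P214L and ZsGreen in every library. Cox6a1 fell by 0.51 with ETV6 WT against ZsGreen (SE 0.06, adjusted p = 5.92e-06), by 0.57 with I209S P214L against ZsGreen (SE 0.07, adjusted p = 1.48e-06) and by 0.48 with I209S P214L against P214L (SE 0.07, adjusted p = 1.35e-05).

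The isoforms known from heart, muscle, lung or testis were near silent. Cox7a1, known from heart and muscle, was the single one with enough counts to test, at 0.698, 1.39 and 1.41 CPM with I209S P214L, 1.80, 0.650 and 1.70 CPM with P214L, 0.916, 1.65 and 0.957 CPM with ETV6 WT and 0.564, 1.40 and 0.902 CPM with ZsGreen. All groups overlapped and none of the 6 comparisons was called. Cox4i2 had 28 counts over all 12 libraries, Cox6b2 21, Cox8b 14, Cox7b2 5, Cox6a2 4 and Cox8c 0, while Ndufa4l2, a relative of Ndufa4, had 31. Cox7a2l, which joins complexes III and IV in supercomplexes, had 247, 255 and 229 CPM with I209S P214L, 249.6, 261 and 257 CPM with P214L, 242, 264 and 239 CPM with ETV6 WT and 269, 250.3 and 250.2 CPM with ZsGreen. Its groups overlapped, and its log2 fold change lay between -0.07 and 0.04 in the 6 comparisons, with an SE of 0.06.

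In complex V, 4 of 5 genes of the F1 head fell with ETV6 WT against ZsGreen, 4 of 4 of the peripheral stalk, 2 of 3 of the c-ring and 2 of 5 of the remaining membrane part. Of all genes, 18.2% fell in that comparison, and differences between these parts were not tested. Atp5b, the catalytic beta subunit (ENSMUSG00000025393; chromosome 10, 127919142 to 127926260, plus strand), had the highest CPM of all members, with 699.5, 630.1 and 605 CPM with I209S P214L, 836, 842 and 809 CPM with P214L, 714, 656 and 632 CPM with ETV6 WT and 979, 862 and 883 CPM with ZsGreen. No library of I209S P214L or ETV6 WT reached those of P214L or ZsGreen. Atp5b fell by 0.44 with ETV6 WT against ZsGreen (SE 0.07, adjusted p = 5.82e-05) and by 0.36 with I209S P214L against P214L (SE 0.07, adjusted p = 0.000537). Atp5e, the epsilon subunit, was the F1 gene that was not called, at -0.05.

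Atp5pb, the b subunit of the peripheral stalk (ENSMUSG00000000563; chromosome 3, 105850014 to 105867415, minus strand), had 174, 164 and 157 CPM with I209S P214L, 254, 239.8 and 224 CPM with P214L, 167, 173 and 161 CPM with ETV6 WT and 243, 234 and 242 CPM with ZsGreen. The gap from I209S P214L and ETV6 WT up to P214L and ZsGreen was wider than the spread within any group. The fall was 0.52 with ETV6 WT against ZsGreen (SE 0.07, adjusted p = 5.1e-06) and 0.53 with I209S P214L against P214L (SE 0.07, adjusted p = 4.99e-06). Atp5o, the OSCP subunit that ties the stalk to the head, fell by 0.66 with ETV6 WT against ZsGreen, from libraries of 56.0, 88.0 and 67.6 CPM with ETV6 WT and 111, 107 and 116 CPM with ZsGreen (SE 0.14, adjusted p = 0.00102). Atp5j, the F6 subunit, fell by 0.25 in that comparison, and its gene lies opposite Gabpa, with which reads may be shared.

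The c-ring of ATP synthase is built from a single protein that 3 genes encode with different import signals. Atp5g1 (ENSMUSG00000006057; chromosome 11, 95959678 to 95966496, minus strand) had 65.7, 52.5 and 60.5 CPM with I209S P214L, 89.7, 87.6 and 92.0 CPM with P214L, 73.8, 70.4 and 60.6 CPM with ETV6 WT and 105, 101 and 98.0 CPM with ZsGreen. I209S P214L overlapped with ETV6 WT, and both were below P214L, which in turn was below ZsGreen in every library. Atp5g1 fell by 0.57 with ETV6 WT against ZsGreen (SE 0.09, adjusted p = 4.89e-05), by 0.76 with I209S P214L against ZsGreen (adjusted p = 1.67e-06) and by 0.59 with I209S P214L against P214L (adjusted p = 4.82e-05). Its value with P214L against ZsGreen was -0.18 (adjusted p = 0.306).

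Atp5g2 (ENSMUSG00000062683; chromosome 15, 102571299 to 102580787, minus strand) had 173, 189.8 and 212 CPM with I209S P214L, 241, 241 and 235 CPM with P214L, 215 ± 14.9 CPM with ETV6 WT (3 libraries, the highest at 231) and 286, 285 and 295 CPM with ZsGreen. Every P214L library was below every ZsGreen library. It was the sole member called with P214L against ZsGreen, at -0.27 (SE 0.07, adjusted p = 0.0388), and the call was lost in 7 of 12 fits with a library left out: each one of ZsGreen or P214L, and I209S P214L 2 (adjusted p = 0.0501). With ETV6 WT against ZsGreen Atp5g2 fell by 0.42 (adjusted p = 0.000157). Atp5g3 had 145, 85.1 and 88.1 CPM with I209S P214L, 149, 152 and 143 CPM with P214L, 140.0, 124 and 96.7 CPM with ETV6 WT and 128, 150.3 and 152 CPM with ZsGreen. Here I209S P214L 1 and ETV6 WT 1 were the highest of their groups. Atp5g3 was not called with ETV6 WT against ZsGreen (-0.25, adjusted p = 0.231), but was without those libraries (-0.38, adjusted p = 0.00319). Its fall of 0.48 with I209S P214L against P214L (adjusted p = 0.0281) was not called without any P214L library, without I209S P214L 2 or without I209S P214L 3. Its fall of 0.43 with I209S P214L against ZsGreen (adjusted p = 0.0389) was not called without ZsGreen 2, ZsGreen 3, P214L 1, P214L 2, I209S P214L 2 or I209S P214L 3. DESeq2 called neither of these falls (adjusted p = 0.0796 and 0.0967). Atp5g1 and Atp5g2 were also the members with an unadjusted p under 0.05 between I209S P214L and ETV6 WT, at -0.19 and -0.17.

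ETV6 WT against ZsGreen and I209S P214L against P214L share no library, so their fold changes can be set side by side. Of the 45 members that fell in the first and the 44 that fell in the second, 38 were the same genes, which is 84.4% and 86.4% of the lists. Over all genes tested, 2698 fell in the first and 2535 in the second, and the 1981 shared genes were 73.4% and 78.1% of those lists. Over the 79 members, 71 (89.9%) had the same sign, and the fold changes were related with Pearson's r = 0.64 and Spearman's rho = 0.63. Over all 14794 genes r was 0.70 and 79.5% had the same sign. The difference between the members and all genes was not tested. Genes are not independent replicates, and ETV6 WT 1 and I209S P214L 1 deviated together, so r is a description. The calls of both comparisons came from the same fit over all 12 libraries, with a shared estimate of each gene's spread. The lists of falling genes are thus not independent, and their overlap is also a description. Ndufb6 and Cox5b-ps lay lower with I209S P214L against P214L (-0.76 and -0.69) than with ETV6 WT against ZsGreen (-0.32 and -0.05). Cox5b-ps was called in neither, and its reads cannot be told apart from those of Cox5b where the sequences are the same.

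**Figure D4:**
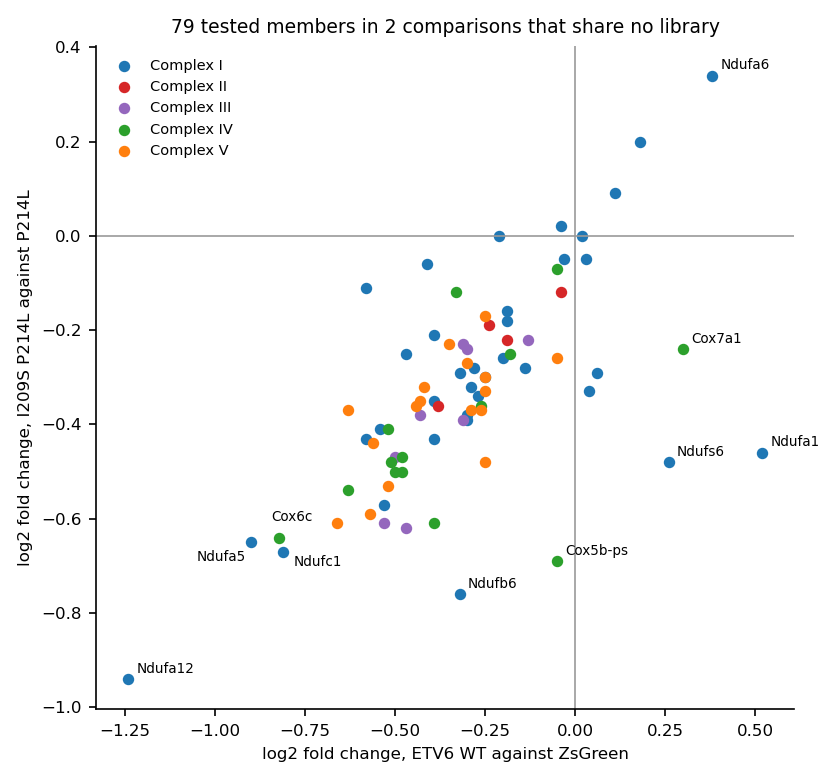
Log2 fold change of the 79 tested members with ETV6 WT against ZsGreen (horizontal axis) and with I209S P214L against P214L (vertical axis), coloured by complex. Most members lie below 0 on both axes, Ndufa12 is lowest on both (-1.24 and -0.94), and Ndufa6 lies above 0 on both (0.38 and 0.34).

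ETV6 WT 1 and I209S P214L 1 differed from the other libraries of their groups, often in the same members. On a log2(CPM + 1) scale, the difference of library 1 from the mean of libraries 2 and 3 ranged over the 79 members between -0.79 and 1.29 for I209S P214L and between -0.75 and 0.82 for ETV6 WT. The differences were related across members (Pearson's r = 0.76, Spearman's rho = 0.73; description only). Library 1 was the highest of its group in both groups for 22 members and the lowest in both for 17, and it was highest in one and lowest in the other for 6. Atp5k, a membrane subunit of ATP synthase, lay 1.29 above the other libraries in I209S P214L 1 and 0.82 above in ETV6 WT 1, while the differences of Ndufb9 were -0.43 and -0.75. Atp5k had 29.3, 15.6 and 8.22 CPM with I209S P214L, 28.3, 24.8 and 9.63 CPM with ETV6 WT and 22.5, 22.7 and 29.0 CPM with ZsGreen. Its groups overlapped and it was not called. These libraries had the lowest shares of 18S RNA, and the part of that in these differences was not tested. The counts of falling members were as large without these libraries, as given above.

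**Figure D5:**
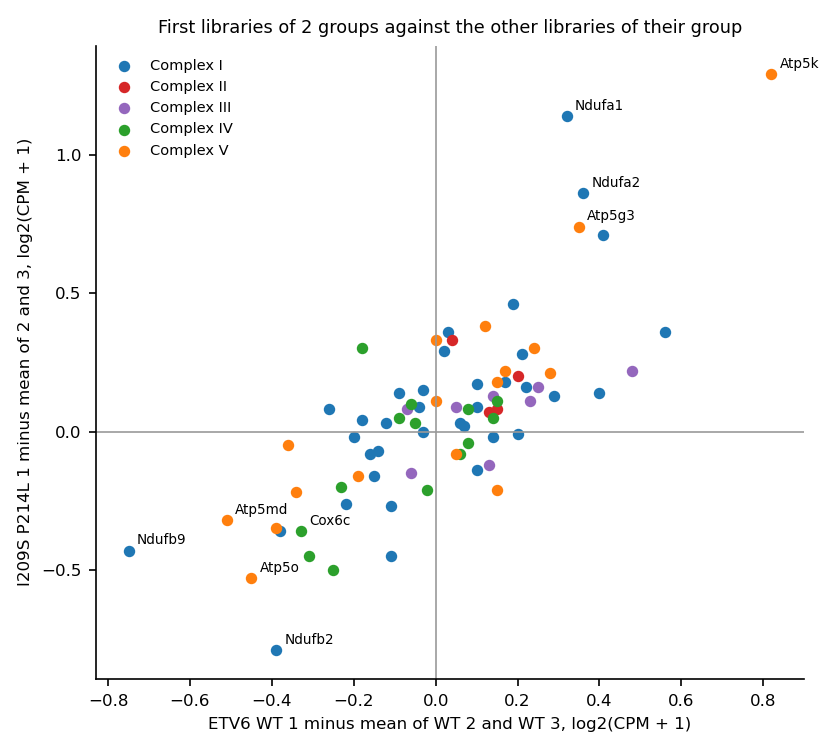
Difference of ETV6 WT 1 from the mean of ETV6 WT 2 and 3 (horizontal axis) and of I209S P214L 1 from the mean of I209S P214L 2 and 3 (vertical axis), both in log2(CPM + 1), for the 79 tested members coloured by complex. The points run along a rising diagonal, with Atp5k at the upper right (0.82 and 1.29) and Ndufb9 at the left (-0.75 and -0.43).

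Short genes were no more often called than long ones. Of 19 tested members with a gene model under 1000 bases, 7 (36.8%) fell with ETV6 WT against ZsGreen, where 8.55% of all tested genes of that length fell. Of 60 longer members 38 (63.3%) fell, where 19.5% of all such genes fell. The corresponding shares with I209S P214L against P214L were 31.6% and 8.67% for short genes and 63.3% and 18.2% for long ones.

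Other genes of the same pathway were followed by list. Of the 13 mitochondrially encoded subunits, 12 were tested, and 3 fell with ETV6 WT against ZsGreen, a share near the 18.2% of all genes that fell, with a median of -0.17. They were mt-Nd1 (1137 ± 142 CPM with ETV6 WT and 1608 ± 36.2 CPM with ZsGreen, log2 fold change -0.50, adjusted p = 4.64e-05), mt-Nd2 (-0.35, adjusted p = 0.0116), both of complex I, and mt-Cytb of complex III (-0.35, adjusted p = 0.000632). mt-Co1, the catalytic core of complex IV, was called in none of the 6 comparisons and averaged 5719.9 ± 593 CPM with I209S P214L, 5666 ± 71.9 CPM with P214L, 5486 ± 721 CPM with ETV6 WT and 6168 ± 136 CPM with ZsGreen.

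Of 5 tested nuclear genes on a list of subunits and partners outside the name rule, which also holds the member Ndufa4, 4 fell and 1 rose with ETV6 WT against ZsGreen, where 18.2% of all genes fell and 19.5% rose. Cyc1, the cytochrome c1 of complex III, had 102, 86.3 and 90.7 CPM with I209S P214L, 127, 129 and 117 CPM with P214L, 112, 84.2 and 97.2 CPM with ETV6 WT and 156, 139 and 137 CPM with ZsGreen. I209S P214L and ETV6 WT overlapped and were below P214L and ZsGreen. Cyc1 fell by 0.56 with ETV6 WT against ZsGreen (adjusted p = 0.000123), Cycs, the somatic cytochrome c, by 0.70 (adjusted p = 0.00013), and Ndufab1, the acyl carrier protein of complex I, by 0.75 (adjusted p = 0.000618). Ndufab1 was not called with I209S P214L against P214L (-0.24, adjusted p = 0.253). Dmac2l, also known as factor B of ATP synthase, rose by 0.81 (adjusted p = 0.0029), with 9.85 ± 1.66 CPM with ETV6 WT and 5.62 ± 1.07 CPM with ZsGreen.

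Assembly factors build the complexes without staying in them. With ETV6 WT against ZsGreen, 18 of 53 tested fell and 5 rose, where 18.2% of all genes fell and 19.5% rose, and the median was -0.19. Ndufaf4, a factor for complex I, fell by 0.79 (21.2 ± 1.40 CPM with ETV6 WT and 36.6 ± 4.21 CPM with ZsGreen, adjusted p = 3.55e-05), and Cox16, for complex IV, by 0.74 (adjusted p = 0.00078). Higd2a, a factor for complex IV and supercomplexes, rose by 0.47 (43.1 ± 5.43 CPM with ETV6 WT and 31.1 ± 2.79 CPM with ZsGreen, adjusted p = 0.00493). With I209S P214L against P214L, 14 of the 53 fell and 1 rose, where 17.1% of all genes fell and 15.9% rose.

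Of 21 tested regulators of mitochondrial gene expression and mitochondrial DNA, 9 fell and 2 rose with ETV6 WT against ZsGreen, where 18.2% of all genes fell and 19.5% rose, and the median was -0.27. With I209S P214L against P214L, 4 of the 21 fell and 1 rose, and the median was -0.17. That share of falls was near the 17.1% of all genes that fell, and 15.9% of all genes rose. Myc, a transcription factor whose targets in other cells include mitochondrial genes, had 116, 103 and 100 CPM with I209S P214L, 173, 172 and 185 CPM with P214L, 129, 98.0 and 109 CPM with ETV6 WT and 182, 187 and 193 CPM with ZsGreen. I209S P214L and ETV6 WT were far below P214L and ZsGreen, and Myc fell by 0.75 with ETV6 WT against ZsGreen (SE 0.09, adjusted p = 2.32e-06) and by 0.73 with I209S P214L against P214L (adjusted p = 4.07e-06). Tfam, which packages and transcribes mitochondrial DNA, had 45.8, 48.7 and 45.4 CPM with I209S P214L, 50.5, 50.4 and 51.8 CPM with P214L, 42.7, 44.0 and 40.3 CPM with ETV6 WT and 69.3, 57.9 and 59.4 CPM with ZsGreen. ZsGreen was highest, with P214L next. Tfam fell by 0.56 with ETV6 WT against ZsGreen (adjusted p = 5.96e-05), and was not called with I209S P214L against P214L (-0.13, adjusted p = 0.306) or with P214L against ZsGreen (-0.29, adjusted p = 0.0634).

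Gabpa, the ETS subunit of GABP, fell by 0.31 with ETV6 WT against ZsGreen (60.0 ± 0.417 CPM with ETV6 WT and 74.5 ± 4.24 CPM with ZsGreen, adjusted p = 0.00344), and its partner Gabpb1 rose by 0.38 (adjusted p = 0.00305). Nrf1, the factor of the same name, was at -0.22 (adjusted p = 0.0519) and fell by 0.35 with I209S P214L against ZsGreen (adjusted p = 0.00247). The coactivator gene Pprc1 fell by 0.33 (adjusted p = 0.00371). Ppargc1a, the best known coactivator of mitochondrial biogenesis, had at most 0.349 CPM in any library and was not tested. Etv6 was higher against ZsGreen with I209S P214L (0.28), P214L (0.34) and ETV6 WT (0.41), and Nras was called in no comparison.

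Since the constructs encode an ETS factor and GABP is another, promoters of the members were searched for short motifs, in the RefSeq windows of build GRCm38.p6 that run 250 bases before to 50 after each gene's start. Windows were at hand for 69 of 87 member symbols, 66 of them tested. The ETS core CCGGAAG, read on both strands, was found in 17 of 66 (25.8%), against 9.93% of all 27025 genes with a window. It was in 10 of the 38 members that fell with ETV6 WT against ZsGreen and in 7 of the 28 others. The palindromic NRF1 motif was in 5 of 66 (7.58%) and 1.07% of all genes, and in a form with any base at its position 6, which includes it, in 17 of 66 (25.8%) and 5.19%. The YY1 motif AAGATGGC was in 10 of 66 (15.2%) and 3.19%, and the NF-Y motif CCAAT in 28 of 66 (42.4%) and 41.1%. The 27025 genes include many with too few counts for a test, while the 66 members were all tested. Shares over tested genes were not computed, so these shares do not compare the members with other expressed genes. A match describes these letters and is not a binding site.

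Cox6a1 and Sdhb are printed because the rule for full statistics took both within ETV6 WT against ZsGreen, where they fell, and both hold the ETS core. Ndufb6 and other members that fell hold it too and are not printed. Lower case is the window in the gene's own direction, 5′ to 3′, and capitals mark matches to the ETS core or its reverse complement and to the NRF1 motif with any base at position 6. The Cox6a1 window lies at chr5:115348909-115349208 on the minus strand of GRCm38.p6 and the Sdhb window at chr4:140961021-140961320 on the plus strand.
Cox6a1: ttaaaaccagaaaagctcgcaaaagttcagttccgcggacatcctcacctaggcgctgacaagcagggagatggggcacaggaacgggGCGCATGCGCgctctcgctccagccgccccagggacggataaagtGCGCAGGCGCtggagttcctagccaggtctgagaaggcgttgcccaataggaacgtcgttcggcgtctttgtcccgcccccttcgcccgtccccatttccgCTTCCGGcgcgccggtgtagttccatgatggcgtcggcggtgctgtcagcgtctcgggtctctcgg
Sdhb: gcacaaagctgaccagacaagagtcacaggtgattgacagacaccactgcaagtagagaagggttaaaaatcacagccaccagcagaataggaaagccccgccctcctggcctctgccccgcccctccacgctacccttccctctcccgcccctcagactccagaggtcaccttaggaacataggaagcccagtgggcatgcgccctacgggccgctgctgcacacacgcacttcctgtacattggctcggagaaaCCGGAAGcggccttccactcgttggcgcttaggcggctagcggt
In Cox6a1 the ETS match lay 16 bases upstream of the start, and in Sdhb it began 6 bases after it. With ETV6 WT against ZsGreen, Cox6a1 fell by 0.51 and Sdhb by 0.24 on the log2 scale, as described above.

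The authors' deposited table holds its own test of the same comparisons, at an adjusted p under 0.05. Of 83 members with a value in the authors' deposited table, 42 were lower and 1 was higher with ETV6 WT against ZsGreen, and 44 of 83 were lower and 1 higher with I209S P214L against ZsGreen. For P214L against ZsGreen the authors' deposited table had 4 lower and 2 higher of 85, and for I209S P214L against P214L 50 lower and 1 higher of 85. The share of all genes called in the authors' test was not computed, so these counts have no background beside them.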

How the data were processed

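Poly-A selected RNA of 12 libraries was sequenced, per the labels' protocols, which describe both a directional and a non-directional kit, so strandedness is unknown. Reads were aligned to mm39 with HISAT2 2.0.5 and counted with featureCounts 1.5.0-p3, per the submitters' processing notes; the annotation release is not given in the sources used here. The authors deposited raw read counts per gene and FPKM, per the file headers. The authors also deposited log2 fold changes and p-values of their own test, whose tool is not given in the sources used here.

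Counts were analysed with edgeR 4.0.16 in R 4.3.3: filterByExpr over the groups (14794 genes kept), TMM scaling, and a quasi-likelihood fit with 1 mean per group over all 12 libraries. Each of 6 pairs of groups, and any difference among the 4, was tested with Benjamini-Hochberg adjustment over the whole table of tested genes; an adjusted p under 0.05 made a call. Alternatives were other scalings, no filter, DESeq2 1.42.0, limma-voom 3.58.1, a replicate block, a gene length trend, fits to 2 groups, and libraries left out. The procedure was tested on simulated data.

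The rule for full statistics took, per comparison, called members with a mean of at least 5 CPM and 1 of the 3 smallest adjusted p of their complex, the 5 largest rises and falls, and listed isoforms and regulators; part of these is printed. Other members and list genes were named after their values were seen. The members and gene lists were chosen with earlier results of these data known. Ndufa12 shares sequence with a pseudogene, and 34 members overlap another gene with at least 10 counts, 30 of them on the other strand. Coordinates of genes are those of the deposited table. Libraries held 14301683 to 18607595 counts. Libraries with the same number were treated as unpaired.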

Additional observations from a re-analysis of the deposited data

How the results depend on the processing

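Over the alternatives with all libraries and those with 2 or 3 left out together, the count of falls with ETV6 WT against ZsGreen was 43 to 52, with I209S P214L against ZsGreen 44 to 51, and with I209S P214L against P214L 40 to 55, and the count of members higher with P214L against ETV6 WT was 39 to 48. With ETV6 WT against ZsGreen, 2 members were called higher without the filter, and 1 to 2 over the fits with a library left out (2 without ETV6 WT 3). With P214L against ZsGreen, 2 were called higher without the filter and 2 in the fit to those groups alone, 2 were lower with the gene length trend, and 0 to 1 were lower with a library left out. With a library left out, 37 to 51 fell with ETV6 WT against ZsGreen and 39 to 49 with I209S P214L against ZsGreen. In those fits 29 to 45 were higher with P214L against ETV6 WT. With I209S P214L against P214L, 29 to 50 fell with a library left out, the lowest without P214L 2. The causes of these shifts were not tested.

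Whether the numbers in the labels pair the libraries was not settled. Deviations of same-numbered libraries correlated at 0.528 between ETV6 WT 1 and I209S P214L 1 and at 0.254 between ETV6 WT 3 and I209S P214L 3. In the other same-numbered pairs the correlation was 0.0963 or less. Libraries with different numbers were not compared, so these values cannot tell pairing from its absence. With the replicate block, 52 members fell with ETV6 WT and 51 with I209S P214L against ZsGreen, 47 with I209S P214L against P214L, 47 were higher with P214L against ETV6 WT, and 55 differed among the groups.

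Of 73 named pairs of member and comparison that were called, 62 were called in all 22 alternative fits. Values that changed sign were all uncalled; those of Cox7a1, which had few counts, moved most. With ZsGreen 1, ETV6 WT 1 and I209S P214L 1 left out, Atp5g3 and Sdhd were at -0.03 and Cox7a2l at 0.03 with P214L against ZsGreen; Cox7a2l was at 0.01 there without the filter. Cox7a1 was at 0.03 with I209S P214L against P214L and at 0.11 against ETV6 WT, both with those 3 libraries left out and with ETV6 WT 1 and I209S P214L 1 alone left out, a setting chosen after seeing the data. With 1 library left out, with P214L against ZsGreen Atp5g3 ranged from -0.03 to 0.09, Cox7a2l from -0.02 to 0.03 and Sdhd from -0.03 to 0.14. With I209S P214L against ETV6 WT, Cox7a1 ranged from -0.18 to 0.31, Cox7a2l from -0.06 to 0.02, Sdhb from -0.12 to 0.03 and Sdhd from -0.03 to 0.08. Cox7a1 ranged from -0.59 to 0.03 with I209S P214L against P214L, from -0.01 to 0.57 with P214L against ETV6 WT and from -0.02 to 0.68 with ETV6 WT against ZsGreen. Sdha ranged from -0.03 to 0.06 with P214L against ETV6 WT.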

Other observations

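Enzymes of the citric acid cycle and of pyruvate entry, which feed electrons into the chain, fell with ETV6 WT against ZsGreen in 15 of 19 tested genes, with a median log2 fold change of -0.42, where 18.2% of all genes fell with a median of 0.03. With I209S P214L against P214L 15 of 19 fell, with a median of -0.38, where 17.1% of all genes fell with a median of 0.00. Idh3a, the catalytic subunit of NAD-dependent isocitrate dehydrogenase, averaged 71.3 ± 1.40 CPM with ETV6 WT and 119 ± 6.56 CPM with ZsGreen (-0.74, adjusted p = 1.49e-07). Idh2, the NADP-dependent mitochondrial enzyme, averaged 74.1 ± 6.75 CPM with ETV6 WT and 116 ± 5.02 CPM with ZsGreen (-0.64, adjusted p = 3.88e-06). Pcx, pyruvate carboxylase, fell by 0.67 (adjusted p = 0.000174) and Pdha1, of the pyruvate dehydrogenase complex, by 0.48 (adjusted p = 4.4e-05).

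Genes of mitochondrial membranes, import and chaperones fell with ETV6 WT against ZsGreen in 16 of 22 tested genes, with a median of -0.31, beside the same 18.2% of all genes. Hspd1, the matrix chaperonin, averaged 275 ± 16.0 CPM with ETV6 WT and 533 ± 21.2 CPM with ZsGreen (-0.96, adjusted p = 1.3e-09). Slc25a5, an ADP/ATP carrier that exchanges the product of ATP synthase, averaged 293 ± 4.06 CPM with ETV6 WT and 552 ± 24.3 CPM with ZsGreen (-0.91, adjusted p = 1.1e-09). Hspa9, the motor chaperone of matrix import, fell by 0.64 (adjusted p = 8.4e-08) and Tomm40, the import pore, by 0.55 (adjusted p = 1.03e-05). With I209S P214L against P214L, 10 of the 22 fell and 1 rose, with a median of -0.20. Of all genes, 17.1% fell and 15.9% rose there. These lists were written with earlier results of the data known, and no explanation was tested.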
